A study of Mus musculus with 7 samples.

Results

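The genes described here are Trp53, which encodes p53, and 9 genes that p53 is known to switch on: Mdm2, Cdkn1a, Ccng1, Bax, Zmat3, Phlda3, Eda2r and the sestrin genes Sesn1 and Sesn2. They were taken by symbol, after Ensembl identifiers were matched to names, and are 10 of the 20927 genes in the table of raw counts. The study sequenced poly(A) RNA from powdered left ventricles, with 1 library per heart and no treatment in the labels. Its groups are 3 wild-type hearts (WT replicates 1, 3 and 4) and 4 hearts homozygous for the titin variant A178D (replicates 1 to 4). The variant replaces an alanine with an aspartate near the end of titin that sits at the Z-disc. It was made with CRISPR-Cas9 in cloned C57BL/6N embryonic stem cells, and the allele also carries a silent change that creates a restriction site. The mice were then crossed to C57BL/6J, the strain that the labels give for both groups, and WT animals were littermates. The labels give neither age nor sex for these hearts. Telethonin, encoded by Tcap, binds titin at the Z-disc and has been tied to p53 signalling in the heart, so the comparison asks whether p53 and its targets differ between the genotypes.

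The transcription factor p53 is made steadily and destroyed steadily, because the ubiquitin ligase Mdm2, itself a p53 target, marks it for the proteasome. The amount of p53 is therefore set largely at the protein, and its activity is often read from its target genes, which arrest the cell cycle, start apoptosis through mitochondria or adjust metabolism. Sestrins are stress proteins that sense leucine, restrain the growth kinase complex mTORC1 through GATOR2 and activate AMPK, and their genes also answer to FoxO factors and to the integrated stress response. Heart muscle cells rarely divide, and p53 has been studied there mainly in pressure overload, doxorubicin damage and ageing.

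Library totals ran from 33080675 counts (A178D replicate 4) to 54245530 counts (WT replicate 3). WT replicates 1 and 4 held 51797208 and 41102868 counts, and A178D replicates 1, 2 and 3 held 40623300, 52345529 and 42174448. Of the counts from 1 to 20, only 17.6% to 20.3% were odd in each library, so a count need not stand for 1 fragment. Levels are given as counts per 1000000 after scaling between libraries (CPM), and every member was counted often enough to pass the filter of at least 10 counts in at least 3 libraries. The lowest count of any member in any library was 138 (Eda2r in A178D replicate 4), so no member passed through only 1 of the genotypes. Gene by gene, the genotypes were compared with edgeR over all 13894 genes that passed, and a gene was called when its Benjamini-Hochberg adjusted p was under 0.05.

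Of the 10 members, 2 were called, Cdkn1a higher and Sesn1 lower in A178D, where 2.35% of all genes tested were called, 1.04% higher and 1.31% lower. By edgeR, 145 genes were called higher and 182 lower in all, and leaving out single libraries moved these counts widely. They came to 22 and 31 with WT replicate 3 left out, 40 and 42 with WT replicate 4, 40 and 50 with A178D replicate 1, and 78 and 112 with A178D replicate 3 left out. Without A178D replicate 2, 115 genes were called lower. The levels of the genotypes did not overlap in the same 2 members, against 16.1% of all genes tested, 7.61% higher and 8.52% lower in A178D. Of the 10 log2 fold changes, 6 were above 0 and 4 below, with a median of 0.05, beside 7018 above 0 and a median of 0.0023 over all genes. No single heart led the members: A178D replicate 4 was the highest heart for 3 of them and the lowest for 2, and WT replicate 3 the lowest for 3.

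**Figure D1:**
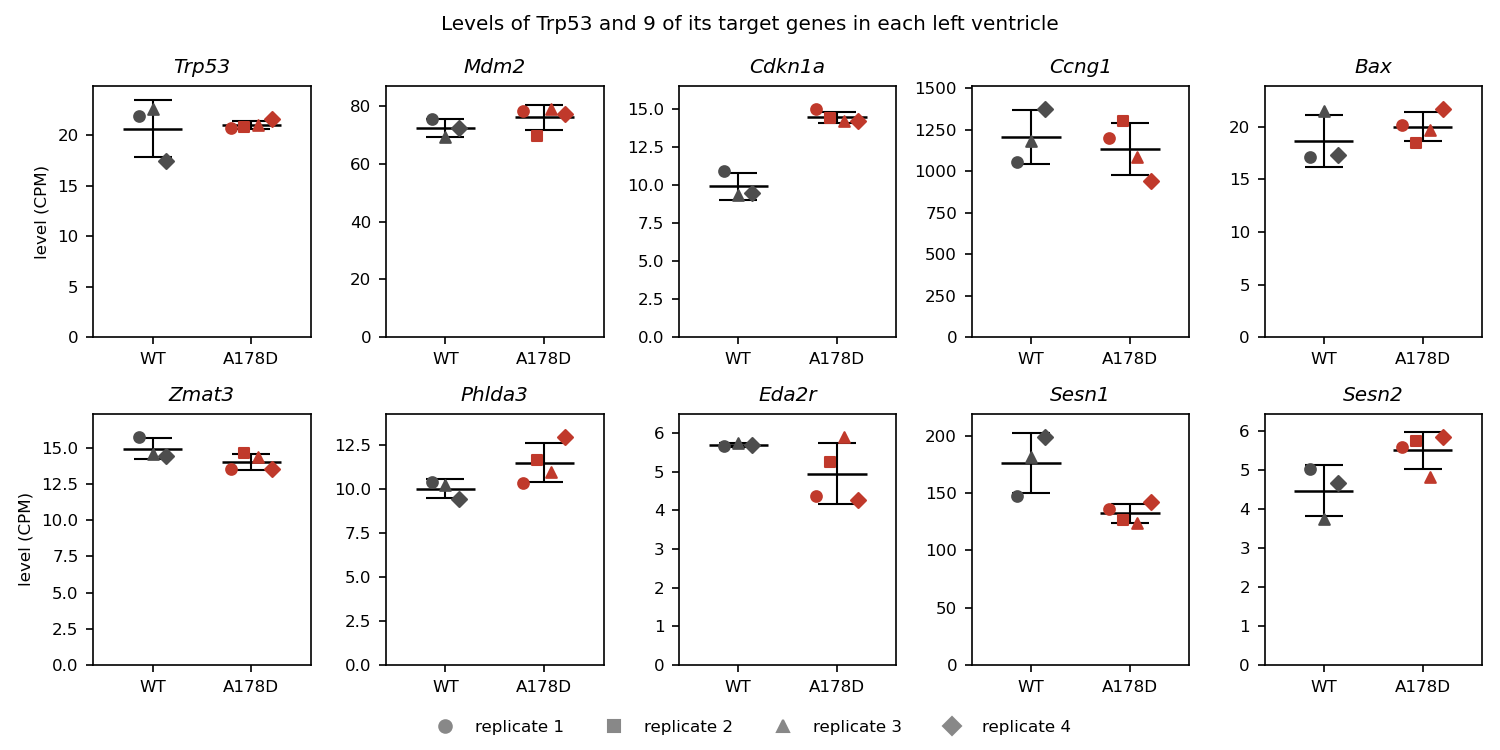
Level of each member gene in CPM (vertical axis of each panel, starting at 0) in WT and A178D left ventricles, with a point for each heart, a line at the group mean and bars of 1 SD. Cdkn1a and Sesn1 are the members whose genotypes do not overlap.

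Per kilobase of exonic bases, the members spanned a wide range, and their order was nearly the same in both genotypes. Ccng1 was by far the most abundant, at 343 CPM per kb in WT and 323 in A178D. Sesn1 came next, at 44.3 and 33.2 CPM per kb, followed by Mdm2 at 14.3 and 15.0 and Bax at 11.8 and 12.7. On the same scale Phlda3 stood at 6.42 in WT and 7.37 in A178D, Trp53 at 5.10 and 5.19, and Cdkn1a at 2.80 and 4.08. The scarcest were Zmat3 at 1.31 and 1.23, Sesn2 at 1.29 and 1.59, and Eda2r at 0.966 and 0.840. Zmat3 and Sesn2, which trade places between the genotypes, are the neighbours in this order that differed by less than their spread between hearts, and they did so in WT.

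Trp53 (ENSMUSG00000059552, chr11:69580359-69591873, plus strand, GRCm38) stood at 21.9, 22.6 and 17.4 CPM in WT replicates 1, 3 and 4 and at 20.7, 20.8, 21.0 and 21.6 CPM in A178D replicates 1 to 4. The 4 A178D hearts lay close together inside the wider WT range, whose low value came from replicate 4. The mean of the WT hearts was 20.6 ± 2.81 CPM (SD, n = 3), beside 21.0 ± 0.400 CPM (SD, n = 4) for the A178D hearts. The log2 fold change, A178D over WT here and throughout, was 0.02 (95% interval -0.19 to 0.23, edgeR adjusted p = 0.941). Without WT replicate 4 it turned to -0.08. A processed pseudogene of Trp53 lies on chromosome 17 and is not among the counted entries.

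Mdm2 (ENSMUSG00000020184, chr10:117688875-117710758, minus strand) is the ligase that removes p53. Its levels were 75.4, 69.4 and 72.6 CPM in WT replicates 1, 3 and 4 and 78.5, 69.7, 79.1 and 77.2 CPM in A178D replicates 1 to 4. Replicates 1, 3 and 4 of A178D were above every WT heart, and replicate 2 sat among them. For Mdm2 the log2 fold change was 0.07 (95% interval -0.08 to 0.23, edgeR adjusted p = 0.663). Within each heart, the log2 ratio of Mdm2 to Trp53 counts sets the ligase beside its substrate. It was 1.78, 1.62 and 2.06 in WT replicates 1, 3 and 4 and 1.92, 1.75, 1.91 and 1.84 in A178D replicates 1 to 4, so the genotypes overlapped. The difference of means was 0.04 (exact permutation test, two-sided, p = 0.857, and 0.857 after adjustment over 3 ratios). Without WT replicate 3 it turned to -0.064.

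Around p53 itself, 30 of 31 listed regulators (ligases, deubiquitinases, kinases, acetyltransferases and ribosomal proteins that bind Mdm2) were tested. By edgeR 0 of them were called, 6 had an unadjusted p under 0.05 (2 higher, 4 lower in A178D), and the median log2 fold change was -0.07. DESeq2 called 1, Sirt1, and limma-voom called 0. Sirt1, a deacetylase of p53, had a log2 fold change of -0.31 (edgeR adjusted p = 0.0823) and 16.5, 15.4, 16.4 and 15.3 CPM in the A178D hearts, all under the lowest WT value of 19.0 CPM. The acetyltransferase genes Ep300 and Crebbp gave log2 fold changes of -0.30 (edgeR adjusted p = 0.145) and -0.25 (edgeR adjusted p = 0.170). Of the p53 relatives, Trp63 was scarce, with 1.22, 1.05 and 1.43 CPM in WT and 1.49, 1.75, 1.55 and 1.76 CPM in A178D. These groups did not overlap, yet the log2 fold change of 0.41 was not called (edgeR adjusted p = 0.420), nor was the gene by DESeq2 or limma-voom. Trp73 did not reach the filter.

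Titin and telethonin transcripts were read as well, since the variant lies in the one and bears on the other. Ttn stood at 7245, 6247 and 6486 CPM in WT replicates 1, 3 and 4 and at 5361, 6173, 6490 and 4087 CPM in A178D replicates 1 to 4. The spread was widest in A178D, where replicate 4 was lowest, and the genotypes overlapped, with a log2 fold change of -0.27 (edgeR adjusted p = 0.287). Tcap stood at 2260, 2631 and 2521 CPM in WT and 2424, 2677, 2661 and 3060 CPM in A178D. Its groups overlapped too, with a log2 fold change of 0.13 (edgeR adjusted p = 0.460).

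Cdkn1a (ENSMUSG00000023067, chr17:29090976-29100727, plus strand) encodes p21, which binds cyclin-dependent kinases and holds cells in G1. Its levels were 11.0, 9.39 and 9.48 CPM in WT replicates 1, 3 and 4 and 15.0, 14.4, 14.2 and 14.2 CPM in A178D replicates 1 to 4. Every A178D heart was above every WT heart, and the 4 A178D hearts were tightly grouped. The WT hearts averaged 9.95 ± 0.893 CPM (SD, n = 3) and the A178D hearts 14.5 ± 0.381 CPM (SD, n = 4). Cdkn1a rose by 45.5% (95% interval 25.4 to 68.9), a log2 fold change of 0.54 (SE 0.10, edgeR adjusted p = 0.0146). Among the 145 genes called higher it ranked 41 by p and 77 by size. Leaving out 1 library ended the call in 3 cases, where the edgeR adjusted p was 0.0951 (WT replicate 3 left out), 0.0746 (WT replicate 4) and 0.0555 (A178D replicate 1). The log2 fold change ran only from 0.50 to 0.62 over all 7 such fits. Counts were 385 to 760 per library, and 7.68% of the exonic bases of Cdkn1a are shared with an unclassified transcript on the opposite strand that is not a counted entry.

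Ccng1 (ENSMUSG00000020326, chr11:40748552-40755311, minus strand) encodes cyclin G1, which brings a phosphatase to Mdm2. Levels were 1055, 1186 and 1377 CPM in WT replicates 1, 3 and 4 and 1202, 1303, 1087 and 943 CPM in A178D replicates 1 to 4. The hearts of the genotypes were interleaved, although the highest was WT and the lowest A178D. The log2 fold change was -0.09 (95% interval -0.32 to 0.14, edgeR adjusted p = 0.729), and without WT replicate 4 it turned to 0.02.

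Other p53 targets of arrest and growth control gave 3 calls among 21 tested, 2 higher and 1 lower, and 7 with an unadjusted p under 0.05. Gadd45a, a growth arrest gene induced by DNA damage, stood at 12.3, 10.3 and 9.75 CPM in WT replicates 1, 3 and 4 and at 15.7, 13.1, 16.1 and 15.4 CPM in A178D replicates 1 to 4. All A178D hearts were above all WT hearts, and the gene rose by 0.48 on the log2 scale (edgeR adjusted p = 0.0434). Its edgeR call was lost without WT replicate 3 (adjusted p = 0.192), WT replicate 4 (0.169), A178D replicate 1 (0.128), A178D replicate 3 (0.107) or A178D replicate 4 (0.0564). It was lost as well when gene length and GC content entered edgeR as offsets, a setting added after the data were seen (log2 fold change 0.38, adjusted p = 0.103).

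Kitl, the stem cell factor gene and the 1 called lower, stood at 112.0, 122.2 and 123.1 CPM in WT and 92.0, 84.3, 94.2 and 82.9 CPM in A178D. The groups did not overlap, and the log2 fold change was -0.43 (SE 0.07, edgeR adjusted p = 0.00877). The call was lost in edgeR without WT replicate 3 (adjusted p = 0.0668) or WT replicate 4 (0.0547). DESeq2 also called Gdf15 higher, a gene named here after its values were seen.

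Cell cycle machinery on which p21 acts gave no edgeR call. None of 6 other CDK inhibitor genes was called by edgeR, where 2 had an unadjusted p under 0.05, both higher in A178D, and limma-voom called 0 and DESeq2 1, Cdkn2d. Cdkn2d had a log2 fold change of 0.37 (edgeR adjusted p = 0.0921) and Cdkn1b one of -0.15 (edgeR adjusted p = 0.374). Cdkn2a, which encodes p16 and the Mdm2 inhibitor p19ARF, was at 0.417 CPM or less in every heart, and its log2 fold change of 1.38 was not called (edgeR adjusted p = 0.271). Among 17 G1 cyclin, CDK and RB family genes, 0 were called by edgeR, DESeq2 or limma-voom, and 1 had an unadjusted p under 0.05. The smallest p of these genes gave log2 fold changes of 0.23 for E2f3 (edgeR adjusted p = 0.254), -0.54 for Cdk6 (edgeR adjusted p = 0.432) and 0.14 for Ccnd2 (edgeR adjusted p = 0.484).

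Bax (ENSMUSG00000003873, chr7:45461697-45466898, minus strand) encodes the pore former of the mitochondrial outer membrane. Levels were 17.1, 21.5 and 17.3 CPM in WT replicates 1, 3 and 4 and 20.2, 18.5, 19.7 and 21.7 CPM in A178D replicates 1 to 4. WT replicate 3 reached the A178D range while the other WT hearts were below it, so the groups overlapped. Bax had a log2 fold change of 0.10 (95% interval -0.12 to 0.32, edgeR adjusted p = 0.660). Of the exonic bases of Bax, 12.2% are shared with Gm45808 on the same strand, which is not a counted entry.

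Zmat3 (ENSMUSG00000027663, chr3:32334792-32366014, minus strand) encodes an RNA-binding zinc finger protein that acts in splicing. It stood at 15.8, 14.6 and 14.5 CPM in WT and 13.6, 14.6, 14.4 and 13.6 CPM in A178D, with 3 of the 4 A178D hearts below every WT heart. Its log2 fold change was -0.09 (95% interval -0.29 to 0.11, edgeR adjusted p = 0.660). Phlda3 (ENSMUSG00000041801, chr1:135766119-135769136, plus strand) encodes a small lipid-binding protein that competes with Akt for the membrane. It stood at 10.4, 10.2 and 9.40 CPM in WT and 10.4, 11.7, 11.0 and 12.97 CPM in A178D, with 3 of the 4 A178D hearts above every WT heart. Its log2 fold change was 0.20 (95% interval -0.04 to 0.43, edgeR adjusted p = 0.394).

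Eda2r (ENSMUSG00000034457, chrX:97333840-97377216, minus strand) encodes a receptor of the tumour necrosis factor family, which binds ectodysplasin A2. Levels were 5.65, 5.74 and 5.69 CPM in WT replicates 1, 3 and 4 and 4.36, 5.26, 5.90 and 4.26 CPM in A178D replicates 1 to 4. The WT hearts were nearly equal, and of the A178D hearts 3 were below all of them and replicate 3 above. Eda2r had a log2 fold change of -0.20 (95% interval -0.51 to 0.12, edgeR adjusted p = 0.535). Around it, 13 genes of ectodysplasin ligands, receptors and NF-kB signalling were tested. By edgeR, DESeq2 and limma-voom 0 were called, and 0 had an unadjusted p under 0.05 in edgeR. The smallest p were those of Nfkbia, with a log2 fold change of -0.25 (edgeR adjusted p = 0.377), Edar, with 0.61 (edgeR adjusted p = 0.558), and Nfkb1, with -0.10 (edgeR adjusted p = 0.624).

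Apoptosis genes beyond the members gave no edgeR call either. Among 12 Bcl-2 family killers 0 were called by edgeR or limma-voom and 1, Bak1, by DESeq2, while 3 had an unadjusted p under 0.05, all higher in A178D, and the median log2 fold change was 0.11. Bak1, the partner of Bax at the membrane, had a log2 fold change of 0.28 (edgeR adjusted p = 0.107) and stood at 29.2, 34.2, 31.4 and 31.7 CPM in A178D, above the highest WT value of 27.5 CPM. Bik and Bok gave 0.44 (edgeR adjusted p = 0.200) and 0.51 (edgeR adjusted p = 0.250). Among 5 protectors that passed the filter, 0 were called by edgeR, DESeq2 or limma-voom and 2 had an unadjusted p under 0.05. Bcl2a1b, under 1 CPM in every heart but A178D replicates 2 and 4, gave 1.33 (edgeR adjusted p = 0.131), and Mcl1 gave -0.12 (edgeR adjusted p = 0.498). Bcl2l1, which encodes Bcl-xL, gave -0.36 (edgeR adjusted p = 0.160), and without WT replicate 1 it was called lower (-0.50, edgeR adjusted p = 0.0275).

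The balance of Bax against its inhibitor Bcl2 was read within each heart. Bcl2 stood at 15.0, 8.69 and 7.33 CPM in WT replicates 1, 3 and 4 and at 13.9, 10.6, 12.9 and 10.7 CPM in A178D replicates 1 to 4. WT replicate 1 was the highest heart and the other WT hearts the lowest, and the log2 fold change was 0.21 (edgeR adjusted p = 0.635). Without WT replicate 1 it was 0.59 and passed the threshold (edgeR adjusted p = 0.0434). The log2 ratio of Bax to Bcl2 was 0.19, 1.30 and 1.23 in WT and 0.54, 0.80, 0.61 and 1.02 in A178D. The A178D ratios lay inside the WT range, and the means differed by -0.17 (exact permutation test, two-sided, p = 0.629, adjusted over 3 ratios 0.857). Without WT replicate 1 this difference was -0.53, and without WT replicate 3 it was 0.03.

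Downstream, 14 caspase and apoptosome genes gave 0 calls by edgeR, DESeq2 or limma-voom and 3 with an unadjusted p under 0.05. Diablo, whose product frees caspases from their inhibitors, had a log2 fold change of 0.20 (edgeR adjusted p = 0.176). Xiap, a caspase inhibitor, had one of -0.23 (edgeR adjusted p = 0.227), and Cycs, which encodes cytochrome c, one of 0.15 (edgeR adjusted p = 0.290). Of 20 further apoptotic p53 targets, edgeR and limma-voom called 0 and DESeq2 called 1, Rps27l, with 3 at an unadjusted p under 0.05. Rps27l stood at 38.0, 43.0 and 45.3 CPM in WT and 59.0, 46.5, 49.7 and 55.4 CPM in A178D. These groups did not overlap, and the log2 fold change was 0.32 (edgeR adjusted p = 0.0991). Perp gave -0.19 (edgeR adjusted p = 0.204), called lower only with the length and GC offsets (-0.26, edgeR adjusted p = 0.0465), and Aen gave 0.18 (edgeR adjusted p = 0.245). In the Phlda and Akt group of 5 genes, edgeR and limma-voom called 0, DESeq2 called 1, and 2 had an unadjusted p under 0.05. Log2 fold changes were 0.63 for Phlda1 (edgeR adjusted p = 0.134) and -0.09 for Akt2 (edgeR adjusted p = 0.535).

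**Figure D2:**
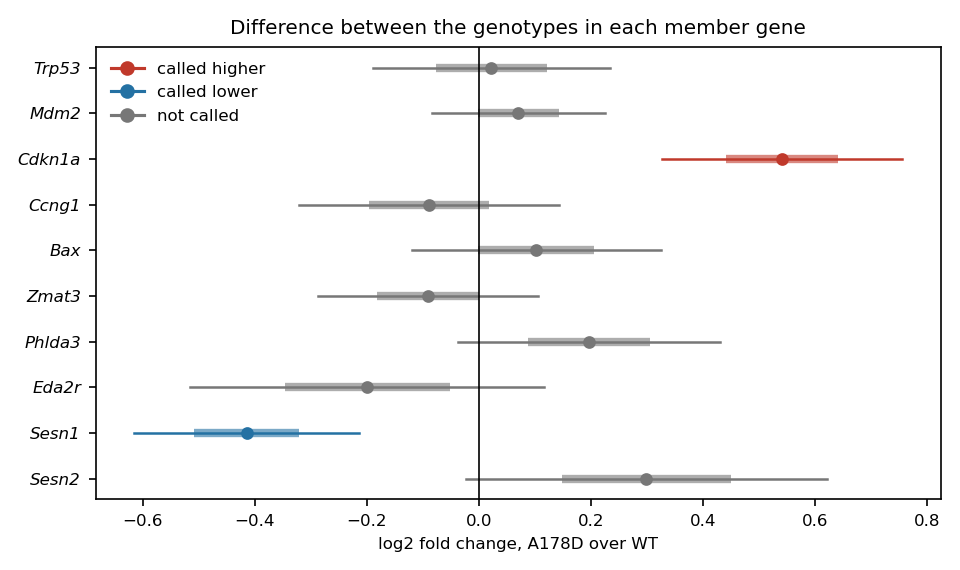
Log2 fold change of each member gene, A178D over WT (horizontal axis), from edgeR, with a thick bar for 1 SE and a thin line for the 95% interval. The intervals of Cdkn1a (0.33 to 0.76) and Sesn1 (-0.62 to -0.21) lie wholly on opposite sides of 0.

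Sesn1 (ENSMUSG00000038332, chr10:41809935-41908424, plus strand) encodes the sestrin that p53 and FoxO factors are best known to switch on. Levels were 147.7, 181.9 and 199.4 CPM in WT replicates 1, 3 and 4 and 136.3, 126.3, 124.4 and 142.2 CPM in A178D replicates 1 to 4. All 4 A178D hearts were below all WT hearts, by a narrow gap between A178D replicate 4 and WT replicate 1. The WT hearts averaged 176 ± 26.3 CPM (SD, n = 3) and the A178D hearts 132 ± 8.44 CPM (SD, n = 4). The change was -25.0% (95% interval -34.7 to -13.7), a log2 fold change of -0.41 (SE 0.09, edgeR adjusted p = 0.0344). Among the 182 genes called lower it ranked 137 by p and 127 by size. In whole tissue, fewer cells of a type and less RNA per cell cannot be told apart.

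The call of Sesn1 was lost without any of 5 libraries, and with the replicate number as a block in edgeR (replicate block, log2 fold change -0.38, adjusted p = 0.0572). With WT replicate 3 left out the edgeR adjusted p was 0.171, with WT replicate 4 left out 0.168, and with A178D replicate 1, 2 or 3 left out 0.0906, 0.0893 or 0.0977. Over all 7 fits that leave out 1 library, the log2 fold change ran from -0.52 to -0.32, so the direction held in each.

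Sesn2 (ENSMUSG00000028893, chr4:132492032-132510501, minus strand) encodes the sestrin induced by the stress factor ATF4. It stood at 5.02, 3.74 and 4.68 CPM in WT replicates 1, 3 and 4 and at 5.60, 5.75, 4.83 and 5.87 CPM in A178D replicates 1 to 4. A178D replicates 1, 2 and 4 were above every WT heart, and replicate 3 was below WT replicate 1. The log2 fold change was 0.30 (95% interval -0.02 to 0.62, edgeR adjusted p = 0.337). Sesn3, the remaining sestrin and not a member, stood at 7.17, 7.24 and 6.92 CPM in WT and 6.69, 7.51, 6.70 and 3.89 CPM in A178D. Its groups overlapped, with the lowest value in A178D replicate 4 and a log2 fold change of -0.19 (edgeR adjusted p = 0.638).

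Per kilobase of exonic bases, Sesn1 made up nearly all sestrin transcript. Summed over Sesn1, Sesn2 and Sesn3, the level was 46.0 ± 6.52 CPM per kb (SD, n = 3) for WT hearts and 35.2 ± 2.13 (SD, n = 4) for A178D hearts, with no overlap. The share of Sesn1 in that sum was 96.1% ± 0.891 in WT and 94.3% ± 0.492 in A178D, and that of Sesn2 was 2.86% ± 0.750 and 4.50% ± 0.284. Neither share overlapped between the genotypes, while that of Sesn3 did, at 1.03% and 1.17%.

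The log2 ratio of Sesn1 to Sesn2 counts within a heart was 4.88, 5.60 and 5.41 in WT replicates 1, 3 and 4 and 4.60, 4.46, 4.68 and 4.60 in A178D replicates 1 to 4. Every A178D heart had a lower ratio than any WT heart. The means differed by -0.71 (exact permutation test, two-sided, p = 0.0286, the smallest that 35 assignments of the hearts can give), and adjusted over the 3 ratios p was 0.0857. The difference ran from -0.92 to -0.56 when 1 heart was left out.

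Factors that act on sestrin genes beside p53 gave 1 call by edgeR among 9 tested, Foxo3, and 2 with an unadjusted p under 0.05. Foxo3, a FoxO factor that switches on Sesn1, stood at 46.8, 52.7 and 54.8 CPM in WT replicates 1, 3 and 4 and at 36.4, 41.5, 37.1 and 30.1 CPM in A178D replicates 1 to 4. All A178D hearts were lower than all WT hearts, with a log2 fold change of -0.50 (SE 0.10, edgeR adjusted p = 0.0205). Its edgeR call was lost without WT replicate 3 (adjusted p = 0.115), WT replicate 4 (0.110), A178D replicate 1 (0.0672) or A178D replicate 3 (0.0527). Ppargc1a, the coactivator of mitochondrial genes, had a log2 fold change of -0.31 (edgeR adjusted p = 0.0611). It passed the threshold without WT replicate 1 (-0.36, edgeR adjusted p = 0.0269), with no filter on low counts (edgeR adjusted p = 0.0406) and in DESeq2. Nfe2l2, which encodes NRF2, gave -0.14 (edgeR adjusted p = 0.313).

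Targets on which sestrins act showed no call. Of 30 genes for GATOR complexes, leucine and arginine sensors, Rag GTPases and other inputs to mTORC1, 0 were called by edgeR, DESeq2 or limma-voom and 2 had an unadjusted p under 0.05, both lower in A178D. Castor2, an arginine sensor, had a log2 fold change of -0.36 (edgeR adjusted p = 0.171), and Tsc1, which restrains mTORC1, one of -0.15 (edgeR adjusted p = 0.334). Of 7 AMPK subunit genes, 0 were called by the same 3 tools and 0 had an unadjusted p under 0.05. Prkab2, Prkag2 and Prkag3 had log2 fold changes of 0.14 (edgeR adjusted p = 0.589), 0.09 (edgeR adjusted p = 0.629) and 0.18 (edgeR adjusted p = 0.634).

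Repair and metabolism targets of p53 added 1 call. Of 13 DNA repair and nucleotide genes, edgeR called 1, Cry1, and 2 had an unadjusted p under 0.05. Cry1, also a clock repressor, stood at 13.9, 17.6 and 16.8 CPM in WT replicates 1, 3 and 4 and at 10.3, 12.7, 10.8 and 11.5 CPM in A178D replicates 1 to 4. Each A178D heart was below each WT heart, with a log2 fold change of -0.51 (SE 0.11, edgeR adjusted p = 0.0328). The edgeR call was lost without WT replicate 3 (adjusted p = 0.187), WT replicate 4 (0.129), A178D replicate 1 (0.112) or A178D replicate 3 (0.0899). Mgmt and Rev3l gave log2 fold changes of 0.31 (edgeR adjusted p = 0.204) and -0.22 (edgeR adjusted p = 0.336). Of 16 metabolism and autophagy targets, edgeR and limma-voom called 0, DESeq2 called Abcb1a lower, and 3 had an unadjusted p under 0.05. Abcb1a gave -0.30 (edgeR adjusted p = 0.0831), Gpx1 0.23 (edgeR adjusted p = 0.204) and Alox12 0.26 (edgeR adjusted p = 0.266).

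Across all 70 further p53 targets tested, out of 75 listed, edgeR called 2 higher and 2 lower, and 36 log2 fold changes were above 0 and 34 below. Their median was 0.01, and 15 had an unadjusted p under 0.05, 10 higher and 5 lower in A178D. Over the 213 tested genes of all pathway lists beside the members, 2 were called higher and 3 lower, and the median was -0.01. Among all genes tested, 16.7% had an unadjusted p under 0.05, and here 38 of the 213 did.

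**Figure D3:**
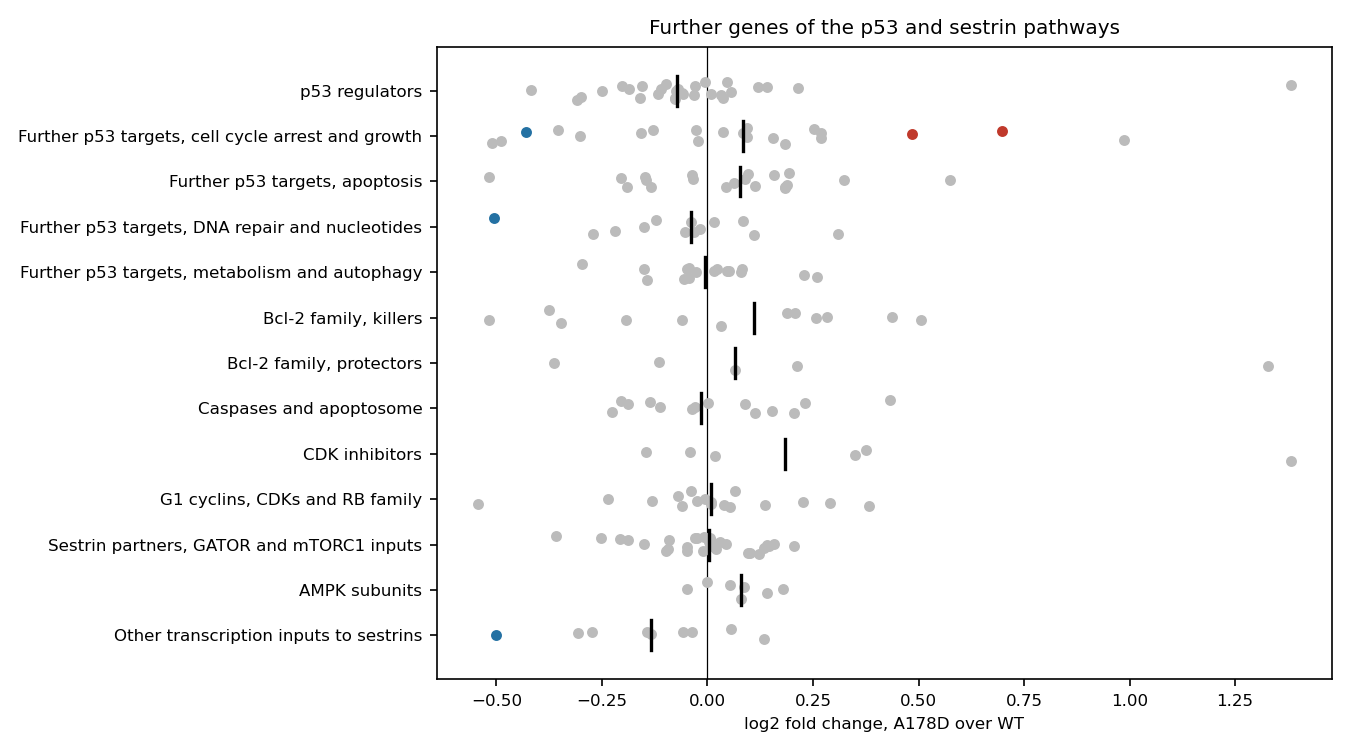
Log2 fold change, A178D over WT (horizontal axis), of every tested gene in the p53 and sestrin pathway lists shown, with a point for each gene, a black line at the median of the list and colour for genes called by edgeR. In the lists of further p53 targets 4 genes are coloured, 2 higher and 2 lower.

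Promoter sequence was read to show what precedes the genes that moved. RefSeq windows (GRCm38.p6, 250 bases before to 50 after a start) were found for 9 of the 10 members, 11 windows in all, and Zmat3 was missing. They were searched for the p53 half-site, the consensus decamer of which p53 binds a pair, and on both strands for the FoxO motif GTAAACA. The half-site was present in 6 windows, 1 each of Trp53, Mdm2, Cdkn1a, Ccng1, Bax and Sesn1, and in 8.36% of all 32851 windows. GTAAACA was present in 3 of the 11, those of Mdm2, Eda2r and the first Sesn1 start, and in 3.65% of all. A pair of half-sites at most 13 bases apart was found in the upstream Cdkn1a window alone among the 11, and in 0.0731% of all. A match describes letters only, and counts per gene do not separate the starts of a gene. The stretch before the upstream Cdkn1a start (chr17:29090729-29090968, plus strand, GRCm38.p6) and that before the second Sesn1 start (chr10:41887189-41887428, plus strand), which lies in an intron of Sesn1, are shown because these members were called. Each has 240 bases and ends 11 bases before its start, and capitals mark half-sites.
Cdkn1a: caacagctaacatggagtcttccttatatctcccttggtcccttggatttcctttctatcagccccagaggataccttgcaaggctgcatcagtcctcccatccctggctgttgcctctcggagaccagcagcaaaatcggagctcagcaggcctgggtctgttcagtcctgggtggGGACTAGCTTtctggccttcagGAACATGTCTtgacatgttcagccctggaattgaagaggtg
Sesn1: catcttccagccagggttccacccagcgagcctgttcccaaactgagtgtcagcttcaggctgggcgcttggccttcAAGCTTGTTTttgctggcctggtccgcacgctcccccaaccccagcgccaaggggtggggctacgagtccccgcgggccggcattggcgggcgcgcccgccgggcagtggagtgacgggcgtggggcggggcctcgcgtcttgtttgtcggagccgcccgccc

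The Cdkn1a half-sites begin 73 and 51 bases before that start, and the Sesn1 half-site 173 bases before its own. For comparison, the half-sites of the 4 other members are given with 10 bases on each side, on the strand of the gene, with capitals as above (GRCm38.p6). They begin 75 bases before the start for Trp53 (chr11:69580274-69580303, plus strand), 186 for Mdm2 (chr10:117710925-117710954, minus strand), 185 for Ccng1 (chr11:40755452-40755481, minus strand) and 201 for Bax (chr7:45467080-45467109, minus strand, in an intron of Gm45808). None of these 4 genes was called by edgeR, DESeq2 or limma-voom, and none had an unadjusted p under 0.05 in edgeR.
Trp53: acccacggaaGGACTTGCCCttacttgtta
Mdm2: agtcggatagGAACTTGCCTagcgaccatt
Ccng1: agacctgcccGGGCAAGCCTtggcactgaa
Bax: agcatatcccAGGCAAGCTTtgaacttgcg

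Markers of the cells in a ventricle were read beside these results. Cardiomyocyte markers (8 genes, Myh6 the most abundant) summed to 96215, 102323 and 101637 CPM in WT replicates 1, 3 and 4 and 96932, 96705, 95059 and 104504 CPM in A178D replicates 1 to 4. The tissue label thus carried its defining markers, the sums overlapped, and 0 of the 8 were called by edgeR, DESeq2 or limma-voom, with 1 at an unadjusted p under 0.05. Smooth muscle and pericyte markers (8 genes, Abcc9 the most abundant) summed to 1327, 1358 and 1332 CPM in WT and 1035, 1124, 1194 and 948 CPM in A178D, with no overlap. In that list 4 of 8 genes were called lower by edgeR and 0 higher, and DESeq2 called 6 lower, Rgs5 and Pdgfrb being the others. The edgeR calls were Acta2 (log2 fold change -0.59), Tagln (-0.62), Myh11 (-0.67) and Cnn1 (-0.82). The call of Myh11 was lost without WT replicate 3 (edgeR adjusted p = 0.0501) or WT replicate 4 (0.0547). That of Cnn1 was lost in edgeR without WT replicate 1 (adjusted p = 0.109), WT replicate 3 (0.0604), WT replicate 4 (0.106), A178D replicate 1 (0.104), A178D replicate 2 (0.0594) or A178D replicate 3 (0.0591), and with the replicate block (0.0617).

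Fibroblast markers (8 genes, Dcn the most abundant) summed to 1206, 1253 and 1131 CPM in WT and 1466, 1373, 1323 and 1348 CPM in A178D, with no overlap. Of these 1 was called by edgeR, Col3a1, which was higher (log2 fold change 0.62), and DESeq2 called Col1a1 higher as well. Col3a1 was lost from the edgeR calls without WT replicate 3 (adjusted p = 0.113), A178D replicate 1 (0.0840), A178D replicate 2 (0.0672) or A178D replicate 3 (0.0712). Proliferation markers (8 genes) summed to 54.5, 113 and 85.4 CPM in WT and 39.3, 62.2, 47.6 and 41.0 CPM in A178D, so the sums overlapped. Cenpf, the most abundant of them, was the 1 called, lower by edgeR (log2 fold change -1.41), and its call was lost without WT replicate 3 (adjusted p = 0.0823) or WT replicate 4 (0.0630). The other 7 genes of that list had log2 fold changes above 0, 3 of them with an unadjusted p under 0.05, and the median of the list was 0.50, so the sums do not speak for these 7.

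Endothelial markers (8 genes, Kdr the most abundant) summed to 1197, 1129 and 1044 CPM in WT and 1081, 1103, 1141 and 1120 CPM in A178D, and overlapped. EdgeR and limma-voom called 0 of them, DESeq2 called Cldn5 higher, and 1 had an unadjusted p under 0.05. Macrophage markers (8 genes, Csf1r the most abundant) summed to 203, 266 and 231 CPM in WT and 269, 280.4, 248 and 279 CPM in A178D, and overlapped. EdgeR and limma-voom called 0 of them, DESeq2 called C1qb higher, and 3 had an unadjusted p under 0.05. Lymphocyte markers (8 genes, Cd79b the most abundant) summed to 3.88, 4.26 and 2.81 CPM in WT and 5.20, 3.55, 4.73 and 3.64 CPM in A178D, and the T cell marker Cd3d was at 0 in a library. EdgeR and DESeq2 called 0 of these, limma-voom called Cd3d higher, and 1 had an unadjusted p under 0.05. The 4 Y-linked genes listed were counted in all 7 libraries, Ddx3y the most abundant at 75.2 CPM or more. Their sums were 223, 225 and 264 CPM in WT and 245, 243, 222 and 167 CPM in A178D. EdgeR, DESeq2 and limma-voom called 0 of the 4, and 0 had an unadjusted p under 0.05. By these Y-linked transcripts every heart was male. Xist, the other sex-linked gene listed, is not among the counted entries.

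Clock genes of the Per phase (10 genes, Tef the most abundant) summed to 1183, 1182 and 1219 CPM in WT and 924, 1045, 1120.2 and 1084 CPM in A178D, with no overlap. In this list 4 were called lower by edgeR: Per2 (log2 fold change -0.88), Per3 (-0.47), Tef (-0.39) and Hlf (-0.42). Another 3 of the 10 had log2 fold changes above 0, up to 0.51, 1 of them with an unadjusted p under 0.05 in edgeR. DESeq2 called 5 lower, Nr1d2 being the other. Without WT replicate 3 all 4 calls were lost in edgeR, with adjusted p of 0.0525 for Per2, 0.0890 for Per3, 0.0890 for Tef and 0.116 for Hlf. Without WT replicate 4 the edgeR adjusted p was 0.0937 for Per3, 0.0873 for Tef and 0.149 for Hlf, and without A178D replicate 1 it was 0.0555, 0.0574 and 0.0907. Clock genes of the opposite phase (5 genes, Clock the most abundant) summed to 75.3, 68.7 and 69.6 CPM in WT and 87.9, 79.8, 77.3 and 62.3 CPM in A178D, and overlapped. There edgeR called Arntl higher (log2 fold change 1.77) beside Cry1 lower, and Arntl was lost without WT replicate 3 (adjusted p = 0.0823) or WT replicate 4 (0.0761).

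Glucocorticoid response genes (10 genes, Klf9 the most abundant) summed to 575, 721 and 723 CPM in WT and 489, 584, 643 and 660 CPM in A178D, and overlapped, with 1 called lower by edgeR, Zbtb16 (log2 fold change -1.22). Immediate early genes (8 genes, Jun the most abundant) summed to 200.3, 126 and 123 CPM in WT and 109, 187, 188 and 202 CPM in A178D, and overlapped. EdgeR, DESeq2 and limma-voom called 0 of the 8, and 0 had an unadjusted p under 0.05. Gene length and GC content together accounted for 16.4% of the variance of log2 levels in A178D replicate 4, measured against the mean of all hearts, for 6.82% in WT replicate 1 and for 3.52% or less in the other 5. The smooth muscle, fibroblast and Per-phase sums separated the genotypes as Cdkn1a and Sesn1 did, and their part in the result was not tested.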

How the data were processed

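The authors deposited raw counts per Ensembl gene for 7 left ventricle libraries (stranded poly(A) RNA, paired ends). A second table that the authors deposited holds a signal: counts that DESeq2 scaled with a single factor for each library. It was used only to read those factors. The submitters' processing notes name bcl2fastq 2.18.0.12, HISAT2 2.1.0, SAMtools 1.6, DESeq2 1.26.0 and the build GRCm38. The counting program and the annotation are not given in the sources used here.

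Identifiers were matched to GENCODE M21. Of 21257 entries, 330 that repeated the counts of another entry were removed. The 13894 genes that reached 10 counts in 3 or more libraries were tested with edgeR 4.0.16 in R 4.3.3 (TMM scaling, quasi-likelihood test of A178D against WT, no covariate), with Benjamini-Hochberg adjustment over all genes tested and a threshold of 0.05. Library totals were 33080675 to 54245530 counts, and each SE includes the spread between hearts (biological coefficient of variation 0.111). Within-heart ratios were log2((count + 0.5)/(count + 0.5)), compared by an exact two-sided permutation test over 35 assignments with SciPy 1.17.1.

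Alternatives were DESeq2 1.42.0, DESeq2 size factors in edgeR, limma-voom (limma 3.58.1), no filter, a minimum of 10 counts in all libraries, a replicate block, each library left out, the table as deposited, counts halved and rounded up (because most small counts were even), an adjusted p under 0.01 and a pseudocount of 10. Offsets for gene length and GC content (mgcv 1.9.3) were added after the data were seen. Members and gene lists were chosen with earlier results of these data known. Genes named are the members, Ttn, Tcap, genes of the ratios, every called gene of a list and, in pathway lists with fewer than 3 calls, those with the smallest p up to 3 in all, with some left out of the text; Sesn3, Gdf15 and genes called only by another tool were named beside them after their values were seen. Promoter windows came from RefSeq (GRCm38.p6).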

Additional observations from a re-analysis of the deposited data

Results flagged for a closer look

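Among 74 genes and ratios measured in 4 A178D hearts, 4 had a heart whose gap to the nearest other heart took up nearly all of the group's range, and 0 of the 10 members did. Chance gives about 1 in 20. Xiap stood at 47.8 CPM in A178D replicate 4, below 59.5 to 61.3 CPM in the other A178D hearts. Edar stood at 0.744 CPM in A178D replicate 1, above 0.309 to 0.360 CPM in the others. Akt2 stood at 220.1 CPM in A178D replicate 4, above 199.7 to 200.7 CPM in the others. Col3a1 stood at 324 CPM in A178D replicate 2, above 302.9 to 305.8 CPM in the others.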

How the results depend on the processing

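Cdkn1a was called higher in 13 of 16 alternatives and Sesn1 lower in 10 of 16. Leaving out 1 library gave log2 fold changes of 0.50 to 0.62 for Cdkn1a (edgeR adjusted p 0.00670 to 0.0951) and -0.52 to -0.32 for Sesn1 (edgeR adjusted p 0.00322 to 0.171). It gave -0.084 to 0.092 for Trp53 and -0.17 to 0.017 for Ccng1, and both changed sign without WT replicate 4. The cause was not tested. The other 6 members had the same sign and were not called in all 16 alternatives, but their sizes moved. Leaving out 1 library gave 0.041 to 0.11 for Mdm2, 0.047 to 0.22 for Bax, 0.14 to 0.24 for Phlda3, -0.11 to -0.046 for Zmat3, 0.18 to 0.40 for Sesn2 and -0.29 to -0.14 for Eda2r. Offsets for length and GC content gave 0.0046 for Bax, -0.0068 for Zmat3 and 0.11 for Phlda3.

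Genes called higher and lower (145 and 182) came to 22 to 215 and 31 to 238 with 1 library left out. DESeq2 called 290 and 375, and an adjusted p under 0.01 left 24 and 40. Offsets for length and GC content, added after the data were seen, gave 284 lower. The cause was not tested.

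With the replicate block the log2 fold change of Sesn1 was -0.38 (edgeR adjusted p = 0.0572) and 124 genes were called higher and 147 lower, while A178D replicate 2, without a WT partner, is fitted exactly. Profiles of WT and A178D hearts with the same number correlated, across genes, at 0.003, -0.040 and -0.042, which gives no sign that numbers pair hearts.

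Of 970 values for 61 other named genes, 913 were on the same side of the threshold, 45 lost it, 12 passed it and 0 changed sign. Sizes of some genes not called also moved by over 1.5 times: leaving out 1 library gave log2 fold changes of -0.35 to -0.15 for Ttn, -0.77 to -0.16 for Cdk6, 0.056 to 0.33 for Prkab2, -0.19 to -0.00076 for Nfkb1, 0.29 to 0.66 for Bok and 0.27 to 0.53 for Bik. With 1 library left out, values also ran from -0.38 to -0.12 for Nfkbia, 0.23 to 0.74 for Edar and -0.17 to -0.047 for Mcl1. They ran from 0.38 to 0.79 for Phlda1, 0.064 to 0.20 for Ccnd2 and -0.26 to -0.13 for Rev3l. For Bcl2 they ran from 0.021 to 0.59, for Prkag2 from 0.044 to 0.12 and for Prkag3 from 0.099 to 0.29. The offsets gave 0.010 for Tcap, 0.19 for Rps27l and 0.11 for Gpx1. Cdkn2a and Edar did not pass every filter and have fewer values. Leaving out 1 heart gave differences of -0.53 to 0.03 for Bax to Bcl2, -0.064 to 0.15 for Mdm2 to Trp53 and -0.92 to -0.56 for Sesn1 to Sesn2. The largest moves were under the SD of the WT hearts and over that of the A178D hearts, and the first and second changed sign without WT replicate 3. A pseudocount of 10 gave -0.16, 0.03 and -0.71.

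With 3 and 4 hearts, differences smaller than the intervals given cannot be detected, and a p above the threshold does not show equal levels. Transcripts do not give p53 or sestrin protein, and the labels give neither age nor sex for these hearts. Y-linked genes were counted in every library, which marks the hearts as male, while their age stays unknown.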
